A study of Mus musculus with 8 samples.

Results

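The DNA replication machinery of late 2-cell mouse embryos was described through the RNA levels of 47 genes, taken by name from 4 steps of replication. They were 9 genes of origin recognition and licensing, 15 of the helicase, its activation and its kinase, 20 of the polymerases and other fork proteins, and 3 of nucleotide supply. An array probe set for a transcript (a transcript cluster) annotated to the gene alone was found for 45 of the 47, among 30701 genes in the series. Each of the 45 lay on a single such cluster, and none was left out for a low level. Orc5, a subunit of the origin recognition complex, shared its cluster with Gm15421, and Mcm7, a helicase subunit, shared its cluster with 2 microRNA genes, so neither entered a test.

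RNA was measured on 8 Affymetrix arrays, each from a pool of 100 embryos of B6C3F1 x CD1 matings, fertilized in vivo after hormone stimulation. The 4 groups, of 2 pools each, were embryos given Trim21 mRNA and an anti-COPS3 antibody together (the full treatment), embryos given the anti-COPS3 antibody alone, embryos given Trim21 mRNA alone, and non-manipulated embryos that stayed in the incubator. Substances were injected into the ooplasm at the mid-pronuclear stage, and culture went on for 28 h, although the age label gives 24 h in vitro. TRIM21 recognises antibodies inside cells and sends the protein bound to them for degradation, and COPS3 belongs to the COP9 signalosome, a complex that takes NEDD8 off cullin ubiquitin ligases. The protocol text describes the injections of Trim21 mRNA with and without the antibody, while the antibody-alone group is known from its sample titles. No group received another antibody as a control. Per the labels, zygotes in both antibody groups divided poorly and many stayed at the 1-cell stage, while those of the Trim21 mRNA and non-manipulated groups divided normally. Treatment took place on a different day for each group, with its 2 pools made on the same day, so day and treatment cannot be told apart, and every p below measures the spread between pools of a single day. In pooled embryos, fewer cells of a type and less RNA per cell cannot be told apart.

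Before each S phase, the origin recognition complex, CDC6 and CDT1 load the ring of MCM proteins onto DNA, and geminin (Gmnn) holds CDT1 back from loading it again. The kinase CDC7 with DBF4, then CDC45 and the GINS complex, turn the loaded ring into an active helicase, behind which primase, DNA polymerases, the clamp PCNA and the single-strand binding protein RPA copy the strands. The early mouse embryo divides at first with proteins and RNA stored in the oocyte, while its own genome becomes transcribed chiefly at the 2-cell stage.

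Levels are deposited log2 values, so a difference of 1 is a 2-fold change, and levels of different genes are not comparable on an array. Differences were tested with limma in a single fit to all 8 arrays, adjusted by Benjamini-Hochberg over all 30701 genes, and the threshold for a call was an adjusted p under 0.05. Trim21, whose mRNA was injected, stood at 10.4 and 10.3 in the full treatment, 6.76 and 6.37 with antibody alone, 9.77 and 10.14 with Trim21 mRNA, and 6.27 and 5.65 in non-manipulated embryos, high in the 2 groups given it. Cops3 mRNA stood at 9.06 and 9.40 in the full treatment and at 10.0 and 9.97 with Trim21 mRNA, but the antibody acts on protein, so these levels do not check it. The median change of all genes in the full treatment against Trim21 mRNA was 0.21, and after each array was centred on its median it was −0.13. Of 14 early embryo and oocyte markers, 7 were called higher and 1 lower in that comparison, with a median level of 12 and 11.7 on the full-treatment arrays and of 11.6 and 11.2 on the Trim21 mRNA arrays. The 10 transcripts that mark the 2-cell stage included 9 called higher, with a median difference of 1.78.

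In the full treatment against Trim21 mRNA, which compares embryos with and without the antibody when both hold the ubiquitin ligase, 24 of the 45 replication genes were called lower and none higher. Of all genes tested, 23.2% were called, 14.5% lower and 8.73% higher. The median difference over the 45 genes was −0.93. Of the 24 called genes 21 fell by at least 2-fold, as did 3700 of all 4447 genes called lower. After quantile normalization the median was −0.34 and after cyclic loess −0.43, with 17 genes called lower and 2 higher under each. Of all genes, 22.8% and 21.8% were called in those fits. All 3 nucleotide-supply genes, 10 of 14 helicase genes, 5 of 8 origin genes and 6 of 20 polymerase and fork genes were called lower. The group medians were −2.03, −1.21, −1.08 and −0.41 in that order. The steps differed in level as well, and calls were rarer among genes of low level. On the Trim21 mRNA arrays the median level was 8.82 and 8.75 for polymerase and fork genes. It was 10.85 and 10.72 for origin genes, 10.2 and 10.1 for helicase genes, and 9.62 and 9.57 for nucleotide supply. In 36 of the 45 genes both full-treatment pools lay below both Trim21 mRNA pools, against 26.4% of all genes, and in 2 genes, Rpa1 and Lig1, they lay above, against 50.3%. These shares of all genes are over all levels. The 17976 genes with a mean level under 6 had a median difference of 0.305. The 12725 genes of level 6 or more, 42 of the replication genes among them, had −0.32.

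**Figure D1:**
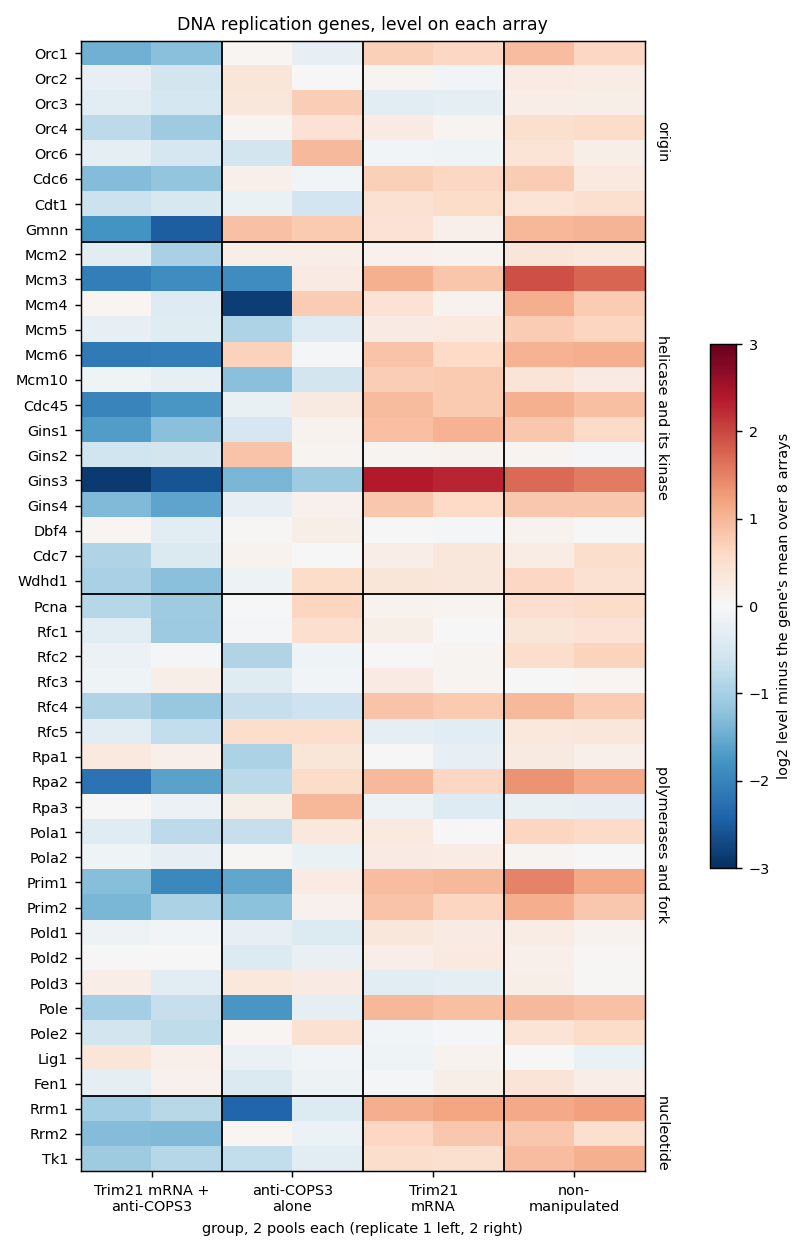
Levels of the 45 measured replication genes on each array, as log2 level minus the gene's mean over the 8 arrays, with genes in rows by step of replication and arrays in columns by group. Full-treatment columns are lowest for most origin, helicase and nucleotide-supply genes, and the 2 antibody-alone columns differ from each other in genes such as Mcm4.

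Among the origin genes, geminin, the inhibitor of relicensing, was high everywhere but in the full treatment. Gmnn stood at 11.19 and 10.52 in the full treatment, 13.86 and 13.77 with antibody alone, 13.43 and 13.14 with Trim21 mRNA, and 13.99 and 14.0 in non-manipulated embryos. Both full-treatment pools lay below the other 6 pools, and the difference from Trim21 mRNA was −2.43 ± 0.24 (SE, n = 2 pools each, limma adjusted p = 0.00059), a 5.39-fold lower level. Orc1, the subunit of the origin recognition complex that varies through the cell cycle, stood at 8.23 and 8.42 in the full treatment, 9.72 and 9.42 with antibody alone, 10.38 and 10.28 with Trim21 mRNA, and 10.6 and 10.3 in non-manipulated embryos. The antibody-alone pools lay between the full treatment and the groups without antibody. Orc1 was 4.01-fold lower in the full treatment than with Trim21 mRNA (limma adjusted p = 0.00045).

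Cdc6, which loads the MCM ring together with CDT1, was also lowest in the full treatment, with antibody alone next. Its levels were 8.93 and 9.05 in the full treatment, 10.38 and 10.15 with antibody alone, 10.94 and 10.86 with Trim21 mRNA, and 11.0 and 10.53 in non-manipulated embryos, a difference of −1.91 ± 0.20 from Trim21 mRNA (limma adjusted p = 0.00074, n = 2 pools each). Cdt1, the licensing factor that geminin binds, differed by less. It stood at 7.66 and 7.83 in the full treatment, 8.11 and 7.72 with antibody alone, 8.76 and 8.84 with Trim21 mRNA, and 8.70 and 8.78 in non-manipulated embryos. The full-treatment and antibody-alone pools overlapped, and both lay below the groups without antibody (−1.05 ± 0.18 for the full treatment, limma adjusted p = 0.0064, n = 2 pools each).

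The other subunits of the origin recognition complex differed among themselves. Orc4 stood at 9.71 and 9.43 in the full treatment, 10.58 and 10.95 with antibody alone, 10.76 and 10.58 with Trim21 mRNA, and 10.98 and 11.05 in non-manipulated embryos, with a difference of −1.10 from Trim21 mRNA (limma adjusted p = 0.0069). Both full-treatment pools lay below the other 6 pools, and the non-manipulated pools lay above all others. Orc2 (−0.41), Orc3 (−0.13) and Orc6 (−0.29) were not called in that comparison.

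The largest difference of all 45 genes was that of Gins3, a subunit of the GINS complex. Gins3 stood at 7.76 and 8.04 in the full treatment, 9.26 and 9.57 with antibody alone, 13.01 and 12.93 with Trim21 mRNA, and 12.35 and 12.21 in non-manipulated embryos. Each of the 4 groups held its own range with no overlap. The difference between the full treatment and Trim21 mRNA was −5.07 ± 0.18 (SE, n = 2 pools each, limma adjusted p = 6.5e-05), a 33.6-fold lower level. Its partners Gins1 (−2.44) and Gins4 (−2.16) were called lower too, while Gins2 (−0.69) was not called.

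Cdc45, which travels with MCM and GINS in the active helicase, stood at 10.28 and 10.52 in the full treatment, 12.05 and 12.54 with antibody alone, 13.21 and 13.06 with Trim21 mRNA, and 13.33 and 13.18 in non-manipulated embryos. Both groups with antibody lay below both groups without it, the full treatment lowest (−2.73 ± 0.21 from Trim21 mRNA, limma adjusted p = 0.0002, n = 2 pools each). Mcm6, a subunit of the MCM ring, stood at 9.45 and 9.51 in the full treatment, 12.26 and 11.51 with antibody alone, 12.44 and 12.17 with Trim21 mRNA, and 12.62 and 12.66 in non-manipulated embryos. An antibody-alone pool overlapped the Trim21 mRNA pools, and the full treatment was 7.09-fold below Trim21 mRNA (limma adjusted p = 0.0004).

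The MCM ring holds equal numbers of its subunits, and their RNAs differed by unequal amounts. Mcm3 stood at 7.36 and 7.56 in the full treatment, 7.56 and 9.67 with antibody alone, 10.49 and 10.25 with Trim21 mRNA, and 11.36 and 11.18 in non-manipulated embryos. Its antibody-alone pools lay far apart, one of them level with the full treatment, and the difference of the full treatment from Trim21 mRNA was −2.91 ± 0.59 (limma adjusted p = 0.014, n = 2 pools each). Mcm2 stood at 11.42 and 10.78 in the full treatment, 11.93 and 11.96 with antibody alone, 11.87 and 11.86 with Trim21 mRNA, and 12.11 and 12.07 in non-manipulated embryos. Its difference of −0.77 ± 0.22 just passed (limma adjusted p = 0.048, n = 2 pools each), and without the second full-treatment pool it was −0.45 (adjusted p = 0.14). Mcm5 (−0.57) and Mcm4 (−0.43) were not called. Of the factors that act on the ring, Mcm10 (−0.95), which takes part in its activation, the kinase gene Cdc7 (−0.93) and Wdhd1 (−1.47), which links polymerase alpha to the helicase, were called lower. Dbf4, the activating partner of CDC7, was not called (−0.10, 95% interval −0.51 to 0.31), and after quantile normalization it was called higher (0.86).

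**Figure D2:**
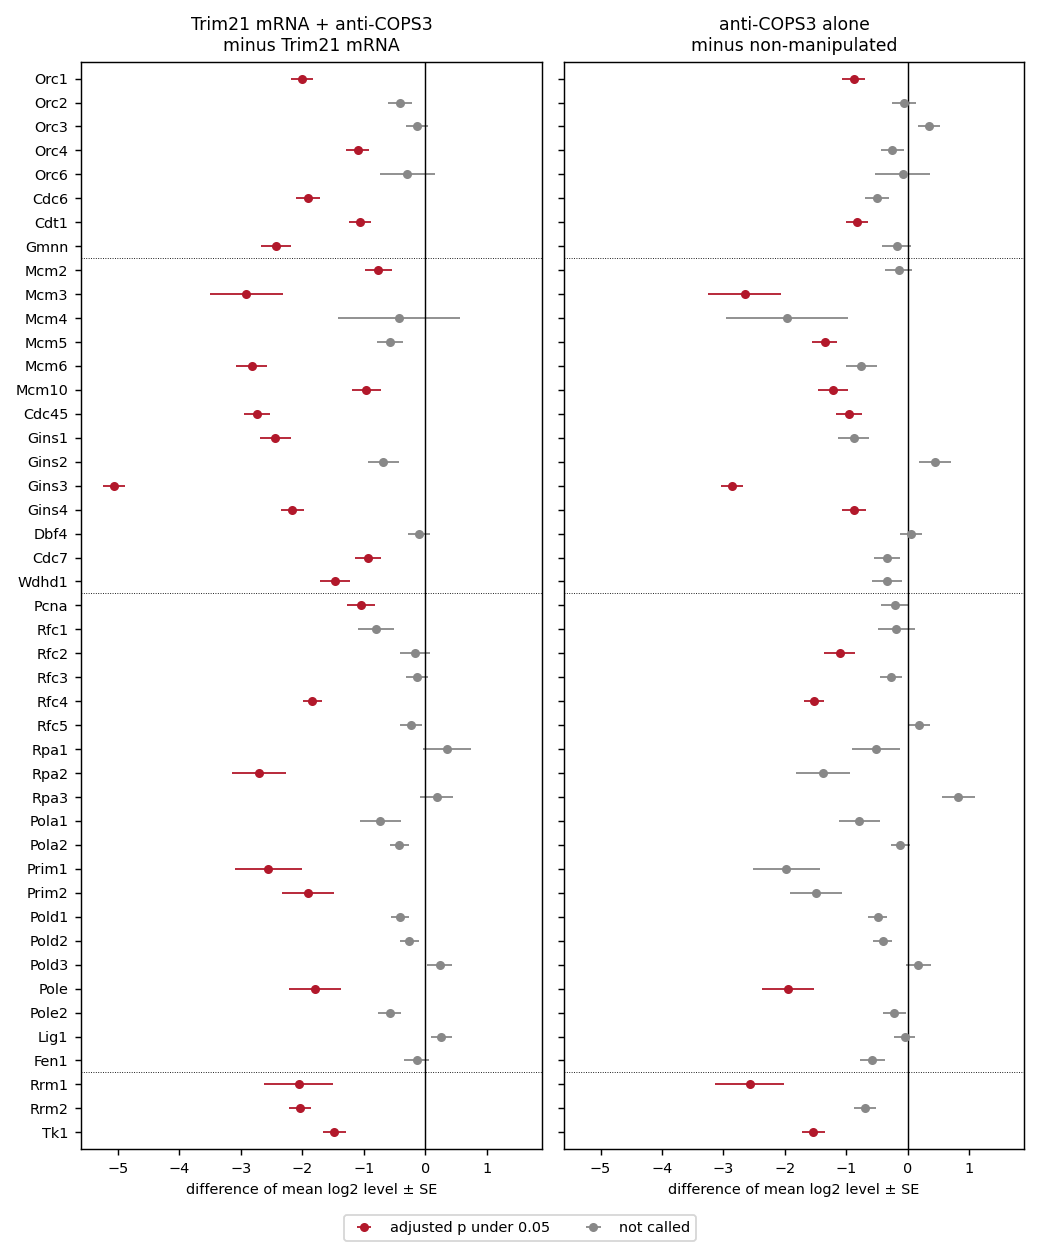
Difference of mean log2 level ± SE for each measured replication gene (rows, by step of replication), for the full treatment minus Trim21 mRNA on the left and antibody alone minus non-manipulated embryos on the right. Red points have an adjusted p under 0.05, 24 on the left and 13 on the right, and all of them lie below 0.

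Of the 20 polymerase and fork genes, the 6 called lower in the full treatment were Pcna, Rfc4, Rpa2, Prim1, Prim2 and Pole. Rpa2, the middle subunit of the single-strand binding protein, stood at 6.66 and 7.26 in the full treatment, 8.07 and 9.42 with antibody alone, 9.85 and 9.49 with Trim21 mRNA, and 10.23 and 10.01 in non-manipulated embryos. Both full-treatment pools lay below all others, 6.54-fold below Trim21 mRNA (limma adjusted p = 0.005). The other 2 RPA subunits were not called, with differences of 0.35 for Rpa1 and 0.19 for Rpa3.

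Both primase genes, whose enzyme starts each new strand with a short RNA, were called lower. Prim1, the catalytic subunit, stood at 6.97 and 6.33 in the full treatment, 6.69 and 8.49 with antibody alone, 9.18 and 9.23 with Trim21 mRNA, and 9.74 and 9.39 in non-manipulated embryos. Prim2, the large subunit, stood at 7.42 and 7.83 in the full treatment, 7.56 and 8.92 with antibody alone, 9.64 and 9.42 with Trim21 mRNA, and 9.87 and 9.6 in non-manipulated embryos. In both genes the first antibody-alone pool was in the range of the full treatment and the second was nearer the groups without antibody. The differences of the full treatment from Trim21 mRNA were −2.56 ± 0.54 for Prim1 and −1.90 ± 0.42 for Prim2 (limma adjusted p = 0.016 and 0.018, n = 2 pools each). The subunits of polymerase alpha that bind primase, Pola1 (−0.73) and Pola2 (−0.42), were not called.

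Rfc4, a subunit of the clamp loader that sets PCNA on DNA, separated the groups by antibody. It stood at 6.75 and 6.53 in the full treatment, 6.97 and 7.04 with antibody alone, 8.51 and 8.44 with Trim21 mRNA, and 8.63 and 8.42 in non-manipulated embryos (−1.83 ± 0.16 for the full treatment against Trim21 mRNA, limma adjusted p = 0.00035, n = 2 pools each). The other clamp loader subunits, Rfc1 (−0.80), Rfc2 (−0.17), Rfc3 (−0.14) and Rfc5 (−0.23), were not called. Pcna itself stood at 12.25 and 12.04 in the full treatment, 13.11 and 13.74 with antibody alone, 13.21 and 13.18 with Trim21 mRNA, and 13.61 and 13.66 in non-manipulated embryos. Its full-treatment pools were the lowest, and the difference of −1.05 from Trim21 mRNA (limma adjusted p = 0.017) shrank to −0.17 after quantile normalization (adjusted p = 0.64).

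Pole, the catalytic subunit of the leading-strand polymerase, was called lower (−1.80, limma adjusted p = 0.024), and its partner Pole2 (−0.58) was not. The lagging-strand polymerase genes Pold1 (−0.41), Pold2 (−0.26) and Pold3 (0.23) were not called. Nor were Fen1 (−0.14) and Lig1 (0.26), whose enzymes trim and join Okazaki fragments. The 95% interval of Lig1 was −0.14 to 0.67. Fen1, Rfc3 and Pold1 had mean levels under 6, a range in which 1.15% of all genes were called lower.

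All 3 nucleotide-supply genes were called lower. Rrm2, the regulatory subunit of ribonucleotide reductase, stood at 9.04 and 9.01 in the full treatment, 10.41 and 10.17 with antibody alone, 10.97 and 11.14 with Trim21 mRNA, and 11.15 and 10.83 in non-manipulated embryos. Rrm1, the large subunit of the same enzyme, stood at 6.92 and 7.11 in the full treatment, 5.55 and 7.54 with antibody alone, 9.03 and 9.12 with Trim21 mRNA, and 9.08 and 9.16 in non-manipulated embryos. For Rrm2 the antibody-alone pools lay between the full treatment and the rest, while for Rrm1 they lay on either side of the full treatment. Tk1, the thymidine kinase of dividing cells, stood at 8.01 and 8.22 in the full treatment, 8.34 and 8.76 with antibody alone, 9.62 and 9.57 with Trim21 mRNA, and 10.01 and 10.16 in non-manipulated embryos. Its antibody-alone pools lay just above the full treatment and below the groups without antibody. The fall against Trim21 mRNA was 4.08-fold for Rrm2, 4.17-fold for Rrm1 and 2.79-fold for Tk1 (limma adjusted p = 0.00036, 0.039 and 0.0018).

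Calls were more frequent among genes of higher level, and the replication genes were mostly of middle or high level. In the full treatment against Trim21 mRNA, 39.1% of all genes with a mean level of 8 to 10 were called lower, and 11 of the 17 replication genes of that range. Between 10 and 12, 45.8% of all genes and 6 of 8 replication genes were called lower, and from 12 upward 54.0% and 4 of 8. Between 6 and 8 it was 20.9% and 3 of 9. The replication genes' count of 24 is thus to be read against these shares as well as against the 14.5% over all levels. Shares of all genes whose pools did not overlap were counted over all levels only, in this and every other comparison. The same holds for the other comparisons. At a level of 8 to 10, 19.3% of all genes and 7 of 17 replication genes were called lower with antibody alone against non-manipulated embryos. Between 10 and 12 it was 23.4% and 1 of 8 in that comparison, and from 12 upward 23.2% and 2 of 8. In the full treatment against antibody alone it was 27.6% and 6 of 17 at 8 to 10. In the 2 higher ranges it was 37.2% and 6 of 8, then 50.2% and 4 of 8. Against non-manipulated embryos the full treatment had 44.6% and 13 of 17 at 8 to 10. The 2 higher ranges there had 49.3% and 7 of 8, then 57.0% and 5 of 8.

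**Figure D3:**
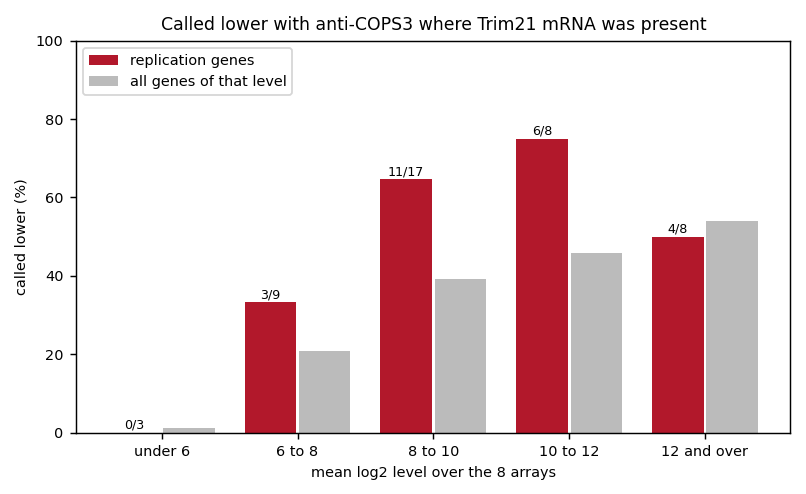
Share called lower in the full treatment against Trim21 mRNA, by mean log2 level of the gene over all arrays, for replication genes and for all genes tested. The share of all genes called lower was 1.15% under a level of 6 and 54.0% from 12 upward.

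Other genes of the pathway were counted from a list of 38, of which 37 were measured. In the full treatment against Trim21 mRNA 19 of them were called lower and none higher, with a median of −0.69. The smallest p belonged to Top2a, the topoisomerase that untangles sister chromatids, Tipin, which steadies paused forks, Tyms, the thymidylate synthase, and Dtl. Dtl encodes the substrate receptor (CDT2) of a cullin ubiquitin ligase that degrades CDT1. Dtl stood at 9.98 and 10.03 in the full treatment, 11.54 and 12.2 with antibody alone, 12.51 and 12.24 with Trim21 mRNA, and 12.94 and 12.82 in non-manipulated embryos, with a difference of −2.37 from Trim21 mRNA (limma adjusted p = 0.00063). The full-treatment pools lay below all others. Cul4a (0.16), Cul4b (0.03) and Ddb1 (1.02), which encode cullins and the adaptor of that ligase family, were not called.

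Markers of cells that could come along with embryos were measured beside these genes. The 17 measured cumulus and granulosa markers had array medians of 5.16 to 5.18 in the full treatment and 4.93 to 5.01 with Trim21 mRNA, and Foxl2, a granulosa cell regulator, stood at 4.17 to 4.39 and 3.83 to 3.95. Of the 17, 4 had a negative difference, and the list's median difference was 0.21, that of all genes. Their summed level was 9.69 and 10.1 in the full treatment, 11.5 and 11.0 with antibody alone, 11.9 and 11.8 with Trim21 mRNA and 12.2 and 12.6 in non-manipulated embryos (log2 of the sum). Amhr2, the receptor of anti-Müllerian hormone, made up most of that sum in the groups without antibody and a smaller part with antibody. Amhr2 stood at 7.69 and 8.80 in the full treatment, 10.27 and 9.62 with antibody alone, 11.61 and 11.54 with Trim21 mRNA and 12.02 and 11.99 in non-manipulated embryos. It was the only marker of that list called lower in the full treatment against Trim21 mRNA (−3.33), and Has2 the only marker called higher. Of the sperm markers 1 of 12 was called lower and 2 higher, of 9 oviduct markers 1 was called higher and of 10 blood markers 2, with none lower in either list. The part of these cells in the replication results was not tested.

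Antibody alone against non-manipulated embryos shares no array with the comparison of the full treatment and Trim21 mRNA. Only the antibody-alone embryos were injected, so injection differs between these groups too. Of the 45 replication genes 13 were called lower and none higher, against 7.29% and 2.76% of all genes. The median difference over the 45 genes was −0.52. Both antibody-alone pools lay below both non-manipulated pools in 29 of the 45 genes, against 21.5% of all genes, and above them in 4, against 39.6%. The 13 were Orc1, Cdt1, Mcm3, Mcm5, Mcm10, Cdc45, Gins3, Gins4, Rfc2, Rfc4, Pole, Rrm1 and Tk1. Of these, 11 were also called lower in the full treatment against Trim21 mRNA, which is 84.6% of the 13 and 45.8% of the 24. The exceptions were Mcm5 and Rfc2. Both calls use the same estimate of each gene's spread, so they are not independent, and the overlap over all genes was not counted. Gins3 again had the largest difference (−2.87 ± 0.18, limma adjusted p = 0.0018, n = 2 pools each), a 7.29-fold lower level. Rfc4 (−1.52) and Tk1 (−1.53) differed by amounts near those in the full treatment, while Gmnn was not called (−0.18, adjusted p = 0.62). Of the 13 calls, that of Gins3 alone was kept under all 3 other scalings and without any single array. It was lost when the fit held only these 2 groups (limma adjusted p = 0.065), a fit in which 0% of all genes were called. Without either non-manipulated array 1 replication gene was called, without either Trim21 mRNA array 4 and without either full-treatment array 5, while 0.306% and 0.508%, 4.43% and 8.31% of all genes were called in those fits. Without antibody-alone replicate 1 there were 17 lower and 2 higher (17.3% of all genes called), and without replicate 2 there were 26 lower and 1 higher (44.9%). Of the cumulus and granulosa markers Amhr2 was called lower in this comparison (−2.06) and 2 were called higher, Star (0.66) and Cyp11a1, a steroid-forming enzyme, at 9.93 and 9.05 with antibody alone against 6.38 and 6.32 in non-manipulated embryos. Ms4a1 was the only blood marker called (1.41, higher), and no sperm or oviduct marker was. Inha, the inhibin alpha chain, differed between the 2 non-manipulated pools (6.30 and 10.32). The part of these cells in the 13 calls was not tested.

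The 2 antibody-alone pools were far less alike than those of any other group. Their levels differed by more than 2-fold in 10 of the 45 replication genes and in 4615 of all genes, and no replication gene differed so in another group, where 809 genes did in the full treatment, 97 with Trim21 mRNA and 49 in non-manipulated embryos. The 10 were Orc6, Mcm3, Mcm4, Rpa1, Rpa2, Pola1, Prim1, Prim2, Pole and Rrm1, all lower in replicate 1. Over all 45 genes, 32 were lower in replicate 1. The direction of the gap over all genes was not counted, so these counts cannot be set against it. The widest gap was that of Mcm4, an MCM subunit, at 9.18 and 8.74 in the full treatment, 6.29 and 9.87 with antibody alone, 9.55 and 9.23 with Trim21 mRNA and 10.22 and 9.87 in non-manipulated embryos. Replicate 1 was also the antibody-alone array with a higher median level of all clusters, 5.24 against 4.86 in replicate 2. On it 136 clusters shared the highest value, as 169 and 151 did on the full-treatment arrays, but no replication gene reached it on any array.

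**Figure D4:**
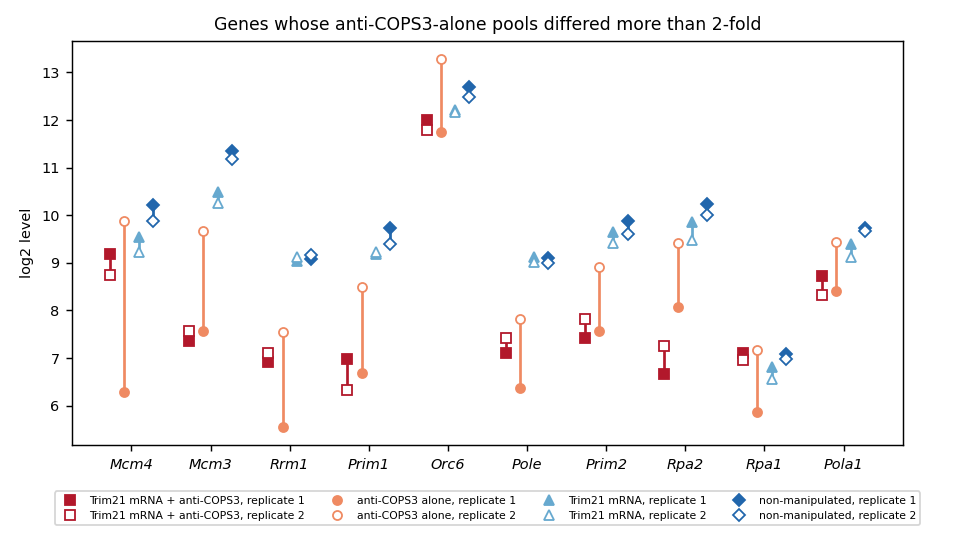
Log2 levels on single arrays of the 10 replication genes with a gap beyond 2-fold between replicate 1 and replicate 2 of antibody alone. Replicate 1 is the lower of these 2 in each of the 10 genes, and Mcm4 has the widest gap.

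Between Trim21 mRNA and non-manipulated embryos none of the 45 replication genes was called by limma, while 0.00326% of all genes were called, and 6 had an unadjusted p under 0.05, of which 5 were lower and Gins3 was higher. The median difference was −0.21. In 24 of the 45 genes both Trim21 mRNA pools lay below both non-manipulated pools, against 26.9% of all genes, and in 8 they lay above, against 33.8%. A fit of these 2 groups alone called 9 of the 45 (8 lower and 1 higher) and 8.20% of all genes.

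The full treatment against antibody alone, which compares embryos with and without Trim21 mRNA when both hold the antibody, gave 18 of 45 genes called lower and none higher, against 10.5% and 4.37% of all genes. Both full-treatment pools lay below both antibody-alone pools in 25 genes, against 22.4% of all genes, and above them in 5, against 23.3%. The called genes were 8 of 14 helicase genes, 5 of 8 origin genes, 4 of 20 polymerase and fork genes and 1 of 3 nucleotide-supply genes. Gmnn had the largest difference (−2.96), followed by Mcm6 (−2.40), Cdc45 (−1.90) and Rpa2 (−1.79). Orc3, Gins2, Rfc5 and Pole2 were called here (−0.97, −1.04, −1.06 and −0.91) but not against Trim21 mRNA. Without antibody-alone replicate 1 the count was 28, all lower (34.0% of all genes called), and without replicate 2 there were 18 lower and 7 higher (27.5%). Without full-treatment replicate 2 it was 10 (8.11%). Against non-manipulated embryos, which share no treatment with it, the full treatment had 30 of 45 genes called lower and none higher, against 16.6% and 15.1% of all genes. Its pools lay below both non-manipulated pools in 39 genes, against 28.8% of all genes, and above them in 2, against 52.9%. Without non-manipulated replicate 1 or 2 the count of 30 became 18 and 17 (12.8% and 12.9% of all genes called). These 2 comparisons share the full-treatment arrays with the first.

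The antibody by Trim21 mRNA interaction was the full treatment's difference from Trim21 mRNA minus antibody alone's difference from non-manipulated embryos. Only the second of these sets injected against uninjected embryos, so injection differs there too. The interaction was called in 6 replication genes, all lower, against 3.46% of all genes called lower. They were Cdc6, Gmnn, Mcm6, Cdc45, Gins3 and Rrm2. The share of all genes called lower rose with level here too. It was 7.98% at 8 to 10, 15.0% at 10 to 12 and 26.2% from 12 upward. Of the replication genes, 0 of 17, 4 of 8 and 2 of 8 were called lower in those ranges. Gmnn had the largest interaction (−2.25 ± 0.34, limma adjusted p = 0.018). Its level was 2.43 lower on the log2 scale in the full treatment than with Trim21 mRNA. Its difference between antibody alone and non-manipulated embryos was −0.18. No polymerase or fork gene was called. None of the 6 calls was kept in every fit that left out an array, and such a fit leaves 1 pool in a group. The median interaction over the 45 genes was −0.36. It was −0.575 without antibody-alone replicate 1 and −0.28 without replicate 2.

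**Figure D5:**
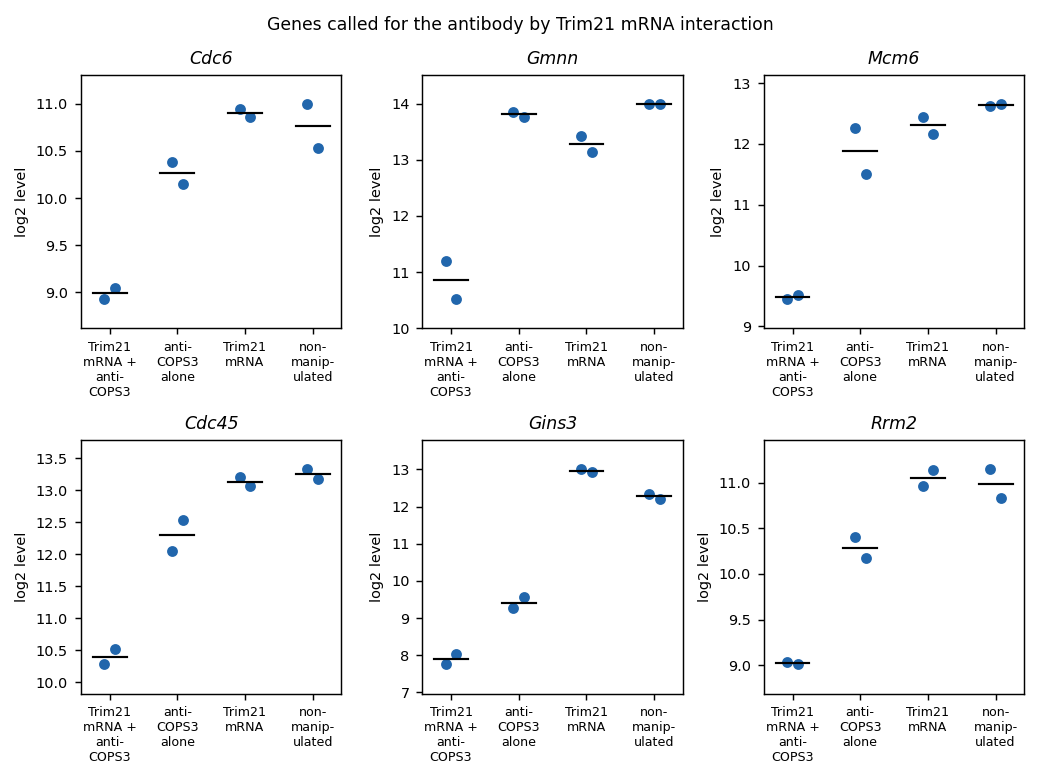
Log2 level of the 6 genes called in the antibody by Trim21 mRNA interaction, by group, with a point for each pool and a line at the mean of the 2 pools. The full treatment is lowest in every panel, and each panel has its own vertical scale.

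The calls of the full treatment against Trim21 mRNA differed in how they stood up to other processing. Of the 24, 12 were kept under all 3 other scalings and without any single array: Orc1, Cdc6, Gmnn, Mcm6, Cdc45, Gins1, Gins3, Gins4, Rfc4, Rpa2, Rrm2 and Tk1. Orc4, Cdt1, Mcm2, Mcm10, Pcna, Prim2, Pole and Rrm1 lost the call after quantile normalization and cyclic loess, Rrm1 after median centring too. Of these, Prim2 (−2.24 to −1.37), Pole (−2.13 to −1.38) and Rrm1 (−2.40 to −1.67) kept a difference of more than 2-fold under each scaling. Mcm3, Prim1, Cdc7 and Wdhd1 lost it only without an array (or, for Cdc7, with a 2-fold threshold). Each of these 12 genes lost it without some array of the full treatment or of the Trim21 mRNA group, at an adjusted p of 0.051 (Wdhd1) to 0.21 (Mcm2) in the least favourable such fit. Without Trim21 mRNA replicate 1 the count was 13 (11.0% of all genes called), without replicate 2 it was 14 (11.3%) and without full-treatment replicate 2 it was 16 (15.2%). Across all 6 comparisons 33 of the 45 genes (73.3%) were called lower at least once, against 20.3% of all genes, a share not split by level. The 12 never called were Orc6, Mcm4, Dbf4, Rfc3, Rpa1, Rpa3, Pola2, Pold1, Pold2, Pold3, Lig1 and Fen1, of which 9 are polymerase and fork genes.

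Promoters of replication genes often hold a short motif bound by E2F factors, which drive S-phase genes in dividing cells. Windows of 250 bases before to 50 after a gene's start (RefSeq, GRCm38.p6) were found for 39 of the 47 genes and searched on both strands for TTTNNCGC, where N is any base. A match stood in 15 of the 39 (38.5%), against 5.9% of 27025 genes with a window. It stood in 6 of 19 genes called lower in the full treatment against Trim21 mRNA (31.6%) and in 8 of 18 measured genes not called (44.4%). CCAAT, the letters of a box common before the start of cell-cycle genes, stood in 59.0% of the 39 and 41.1% of all, and in 13 of the 19 called lower and 9 of the 18 not called. The 2 motifs hold different letters and were counted apart. A match is a description of the letters and no evidence of binding. To set genes called lower beside genes not called, 30 bases around a match are given for 4 genes called lower (Gins3, Orc1, Cdc6, Mcm6) and then for 3 not called in that comparison (Orc3, Mcm5, Pola1), on the gene's strand with the match in capitals, printed as its reverse complement where it lies on the opposite strand. Those 3 were called lower in the full treatment against non-manipulated embryos, Mcm5 also with antibody alone and Orc3 also in the full treatment against antibody alone. Rfc3, Pold1, Pold3 and Lig1, called in no comparison, held a match too.
Gins3, chr8:95633507-95633536, + strand: gcgagtgcggcGCGGGAAAgcgagtttgaa
Orc1, chr4:108579416-108579445, + strand: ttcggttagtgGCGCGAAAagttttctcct
Cdc6, chr11:98908002-98908031, + strand: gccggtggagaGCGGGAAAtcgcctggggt
Mcm6, chr1:128359734-128359763, − strand: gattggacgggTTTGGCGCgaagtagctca
Orc3, chr4:34614965-34614994, − strand: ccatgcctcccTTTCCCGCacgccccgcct
Mcm5, chr8:75109345-75109374, + strand: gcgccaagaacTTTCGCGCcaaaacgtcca
Pola1, chrX:93632275-93632304, − strand: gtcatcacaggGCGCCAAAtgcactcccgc
The match began 41 bases before the start in Gins3 and Orc3, 27 in Orc1, 47 in Mcm6, 138 in Cdc6 and Pola1 and 153 in Mcm5. Mcm6 held 3 matches and Mcm5 2, with overlapping matches on the opposite strand in both. Gmnn had no window, and Cdc45 and Rrm2, also called in the interaction, held no match in this window.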

How the data were processed

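Per the labels' protocols, total RNA of pools of 100 embryos was amplified and labelled with the GeneChip WT Pico reagents. Affymetrix Expression Console is named in the submitters' processing notes. Its version, its summarisation method and a genome build are not given in the sources consulted. The deposited values are log2 levels per transcript cluster, and their distributions differ between arrays. In the first non-manipulated column 1 cell held a large whole number that cannot be a log2 level, and its cluster was dropped, which left 65955 of 65956. Symbols came from the platform annotation: 31257 clusters named 1 gene, 1492 several and 33206 none, and 1429 symbols were updated through RefSeq names. Where a gene had more than 1 cluster (441 genes), the highest mean decided. No low-level filter and no further normalization was applied.

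Group means were fitted with limma 3.58.1 (R 4.3.3; two-sided moderated tests by lmFit and eBayes) to all 8 arrays, with 4 residual and 6.83 total degrees of freedom. The median standard error of a difference was 0.22, and 0.31 for the interaction. The number of arrays limits the precision, and groups of 2 allow no exact test below the threshold. Same-numbered pools did not deviate together (correlations of −0.191 to 0.143 between groups), and no label pairs them. Values on every array are given for up to 4 called genes per step with the largest difference, for genes called in the interaction and for Cdt1, Gmnn, Pcna and Mcm2. Cul4a, Cul4b, Ddb1, Foxl2, Amhr2, Has2, Star, Cyp11a1, Ms4a1, Inha and Mcm4 were named after their values were seen. Members, lists and tests were chosen with earlier results of these data known. Alternatives were quantile normalization, median centring, cyclic loess, a mean level of at least 6, a trended robust prior, averaged clusters per gene, only the groups compared, the fit without the antibody-alone group, a replicate block, an added 2-fold threshold and each array left out.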

Additional observations from a re-analysis of the deposited data

Results flagged for a closer look

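In 6 replication genes the full treatment's difference from Trim21 mRNA was lower than antibody alone's difference from non-manipulated embryos. This was a test of the interaction itself (limma, adjusted over all genes, n = 2 pools per group). In the second of these differences injection differs too. The interaction on the log2 scale was −1.41 for Cdc6 (adjusted p = 0.044), −2.25 for Gmnn (0.018), −2.07 for Mcm6 (0.029), −1.77 for Cdc45 (0.024), −2.21 for Gins3 (0.0078) and −1.33 for Rrm2 (0.038). Gmnn and Gins3 kept the call under all 3 other scalings. Leaving out an array ended each call at least once, with adjusted p reaching 0.21 for Cdc6, 0.12 for Gmnn, 0.15 for Mcm6, 0.15 for Cdc45, 0.071 for Gins3 and 0.21 for Rrm2. No group was large enough to look for an outlying array by its gaps.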

How the results depend on the processing

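Counts of replication genes called, out of 45, moved as follows, and the counts over all genes moved too: with single arrays left out they were 3366 to 14193 in the full treatment against Trim21 mRNA (7126 with all arrays) and 94 to 13791 with antibody alone against non-manipulated embryos (3083). In the full treatment against Trim21 mRNA the 24 became 13 to 31 with single arrays left out and 19 to 31 under the other alternatives. With antibody alone against non-manipulated embryos the 13 became 1 to 27 with single arrays left out, 5 after quantile normalization, 8 after cyclic loess and 0 with only the groups compared. The same counts were 0, and 9 with only the groups compared, for Trim21 mRNA against non-manipulated embryos (0 with any array left out). In the full treatment against antibody alone the 18 became 10 to 28 with single arrays left out and 4 with only the groups compared. In the full treatment against non-manipulated embryos the 30 became 17 to 35 with single arrays left out. For the interaction the 6 became 0 to 18 with single arrays left out, 2 after quantile normalization and 2 after cyclic loess.

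With the replicate number as a block the counts were 23 in the full treatment against Trim21 mRNA, 8 with antibody alone, 0 with Trim21 mRNA, 17 in the full treatment against antibody alone, 27 against non-manipulated embryos and 4 for the interaction. In each of these comparisons fewer of all genes were called with the block than without it. The counts of replication genes are to be read against that fall. The replicate numbers share no source, so this block is no pairing.

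Scaling changed the split of directions. After quantile normalization and after cyclic loess, the full treatment against Trim21 mRNA had 17 lower and 2 higher (Dbf4 and Pold3), with 22.8% and 21.8% of all genes called. Antibody alone had 5 lower after quantile normalization (7.86% of all genes called) and 6 lower and 2 higher after cyclic loess (9.66%). After quantile normalization the full treatment had 14 lower and 3 higher against antibody alone (15.9%) and 19 lower and 5 higher against non-manipulated embryos (24.8%). After cyclic loess these were 12 lower and 2 higher (14.4%) and 20 lower and 2 higher (24.6%). For the interaction 4.08% of all genes were called after quantile normalization and 3.63% after cyclic loess. The median of the 45 genes in the full treatment against Trim21 mRNA stayed negative, from −1.26 (median centring) to −0.34 (quantile normalization).

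Among the 4662 values of single genes under an alternative, 4009 kept direction and side of the threshold, 353 lost the call, 145 gained it and 155 changed sign, 143 of them called in neither fit and 12 called in at least 1. Uncalled examples in the full treatment against Trim21 mRNA, each at its highest value under another scaling, were 0.46 for Orc2, 0.58 for Orc6, 0.41 for Pold2, 0.31 for Rfc5 and 0.29 for Pola2. The 12 were as follows. After quantile normalization Dbf4 was 0.86 in the full treatment against Trim21 mRNA, and against non-manipulated embryos Orc2 was 0.32, Dbf4 0.78, Pola2 0.49, Pold2 0.64 and Pold3 0.79. After cyclic loess Dbf4 was 0.50 in the full treatment against Trim21 mRNA, and against non-manipulated embryos Orc2 was 0.10 and Pold3 0.52. Without antibody-alone replicate 1 or 2, Orc6 was 0.69 and −0.85 with antibody alone against non-manipulated embryos, while in the full treatment against antibody alone Mcm4 was −0.91 and 2.67 and Rrm1 was −0.53 and 1.46. The cause was not tested. Day, treatment and the share of undivided zygotes cannot be told apart.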

Other observations

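The clusters that Orc5 and Mcm7 share with other genes were not tested, since their signal cannot be given to either gene. The cluster of Orc5 and Gm15421 stood at 10.8 and 10.75 in the full treatment, 8.50 and 10.55 with antibody alone, 9.32 and 9.25 with Trim21 mRNA, and 9.45 and 9.49 in non-manipulated embryos. The full-treatment pools were the highest there. The cluster of Mcm7, Mir25 and Mir93 stood at 7.25 and 7.44 in the full treatment, 8.01 and 8.07 with antibody alone, 8.71 and 8.50 with Trim21 mRNA, and 9.11 and 9.13 in non-manipulated embryos, with no overlap between groups.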
